A study of Mus musculus with 21 samples.

Results

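Described here are 9 genes used as markers of stem and progenitor cells of the intestinal crypt: Olfm4, Smoc2, Sox9, Cd44, Prom1, Lrig1, Msi1, Ephb2 and Ephb3. They were chosen by name, as rows of a table of RNA sequencing counts per gene that holds 24062 genes of mouse colon. All 9 were found in the table, and all 9 passed a filter on low counts that left 15936 genes for testing. The 21 libraries fall into 7 groups of 3. All mice were of the C57BL/6 strain, and they were either wild-type or carried App NL-G-F, a knock-in allele of the amyloid precursor protein gene with mutations related to Alzheimer's disease. The male groups were wild-type normal colon, wild-type tumour, knock-in normal colon and knock-in tumour, and the female groups were wild-type normal colon, wild-type tumour and knock-in normal colon. Knock-in female tumours were not analysed here. Tumours came from mice given AOM/DSS, a regimen of the carcinogen azoxymethane and the colon irritant dextran sulfate sodium. The sample labels give the normal libraries as untreated. The series text mentions both normal tissue beside tumours and colon without tumours, so which animals gave the normal libraries is not settled. The labels give no ages, and they do not say whether the 3 libraries of a group came from separate animals, so p-values measure the spread between these libraries, which may in part be technical. The series asks how the App mutant background changes the outcome of AOM/DSS treatment, and for these genes the design compares tumour with normal colon, knock-in with wild-type, and females with males.

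The colon lining renews itself from stem cells at the base of the crypts. Wnt signals are strongest at the base, where they maintain stem cells and the dividing progenitors above them, and cells lose stem and progenitor transcripts as they move up and mature into absorptive colonocytes and secretory cells. The 9 genes act at different points of this axis. Sox9 is a transcription factor and Msi1 an RNA-binding protein of stem and progenitor cells, Smoc2 and Olfm4 are secreted proteins, Cd44 and Prom1 are surface proteins, Ephb2 and Ephb3 are receptors that keep crypt base cells in position, and Lrig1 is a membrane protein that dampens growth factor receptor signals. In mouse colon, unlike the small intestine, Olfm4 is known to be little expressed.

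Library totals ran from 3414123 counts in wild-type male tumour replicate 2 to 26174008 counts in wild-type female normal replicate 1. Levels are given as CPM, the usual depth-scaled count unit, computed here on TMM-scaled library totals, and a floor of 3 counts equals 0.872 CPM in the shallowest library and 0.127 CPM in the deepest. The tissue label fitted the markers: the 12 pan-epithelial genes, such as Epcam and Cdh1, were above 0 in every library and summed to between 6622 CPM in a wild-type female tumour and 12293 CPM in a wild-type female normal library. These are bulk tissue samples, so fewer cells of a type and less RNA per cell cannot be told apart. Smooth muscle markers differed most between tissues. The 8 markers summed to 2860 to 9721 CPM in wild-type male normal colon and to 192 to 754 CPM in wild-type male tumours, to 4565 to 8281 against 887 to 1005 CPM in knock-in males, and to 1983 to 4590 against 176 to 212 CPM in wild-type females. None of these 8 markers was at 0 in any library. The part of the smooth muscle layer in the tumour comparisons of the crypt genes was not tested.

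**Figure D1:**
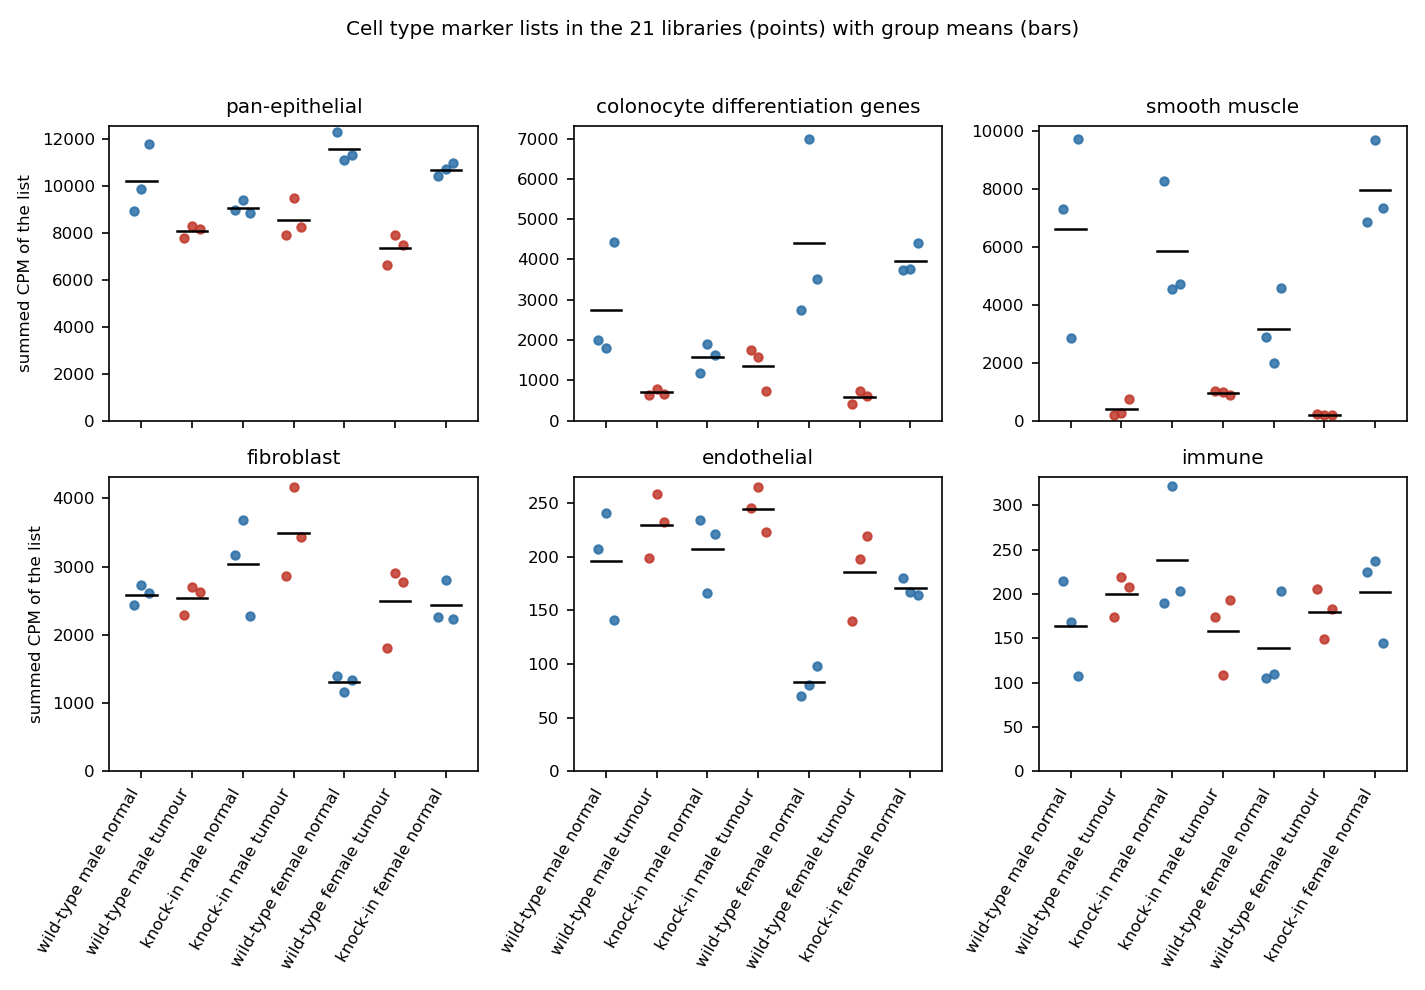
Summed CPM of 6 cell type marker lists (vertical axes, linear, starting at 0) in the 21 libraries by group, tumours in red and normal colon in blue, with bars at the group means. Smooth muscle sums are between 176 and 1005 CPM in the tumours and between 1983 and 9721 CPM in the normal libraries, and the fibroblast and endothelial sums are lowest in wild-type female normal colon.

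Promoter sequences are shown for 4 of the members. Cd44 was the member higher in tumours of all 3 mouse groups, and Lrig1 the member lower in tumours. Ephb2 and Ephb3 were the pair of members whose centred group means differed least. The RefSeq table, on GRCm38.p6, holds windows from 250 bases before to 50 bases after the start for 6 of the 9 members: Olfm4, Cd44, Prom1, Lrig1, Ephb2 and Ephb3. The first 200 bases of each window are printed 5′ to 3′ on the strand of the gene, with CpG dinucleotides in capitals.
Cd44, chr2:102901716-102901915, minus strand: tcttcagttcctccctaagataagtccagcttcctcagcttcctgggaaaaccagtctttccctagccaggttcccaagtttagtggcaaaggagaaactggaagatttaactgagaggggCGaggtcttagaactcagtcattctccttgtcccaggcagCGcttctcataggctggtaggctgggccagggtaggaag
Lrig1, chr6:94700196-94700395, minus strand: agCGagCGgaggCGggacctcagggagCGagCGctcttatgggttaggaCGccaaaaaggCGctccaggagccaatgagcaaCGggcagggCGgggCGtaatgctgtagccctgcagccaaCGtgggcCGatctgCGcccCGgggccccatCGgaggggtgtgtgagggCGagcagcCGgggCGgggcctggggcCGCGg
Ephb2, chr4:136836063-136836262, minus strand: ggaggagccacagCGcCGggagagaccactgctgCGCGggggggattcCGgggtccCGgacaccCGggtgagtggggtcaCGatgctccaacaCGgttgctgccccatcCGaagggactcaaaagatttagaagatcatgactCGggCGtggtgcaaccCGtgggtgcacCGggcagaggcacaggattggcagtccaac
Ephb3, chr16:21204545-21204744, plus strand: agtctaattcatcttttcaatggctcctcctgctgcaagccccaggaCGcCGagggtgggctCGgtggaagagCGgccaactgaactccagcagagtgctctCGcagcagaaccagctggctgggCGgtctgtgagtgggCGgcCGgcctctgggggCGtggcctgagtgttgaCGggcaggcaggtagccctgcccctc
Over the full window of 300 bases the Lrig1 promoter held 35 CpG dinucleotides, a number reached by 6.95% of the 32851 promoters in the table. Ephb2 held 24 and Ephb3 23, numbers reached by 20% and 21.5% of promoters. Cd44 held 6, near the median of 7 over all promoters. The T-cell factor family, through which Wnt signals reach genes, binds words such as ATCAAAG, the word AACAAAG, the word TTCAAAG and the word TACAAAG. Searched on both strands, these 4 words, of which no 2 can match at the same position, were found in 16.9% of all promoters and in 0 of the windows of the 6 members, and this says only that these letters are not in these windows.

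The counts of members past the threshold (adjusted p under 0.05 in edgeR's quasi-likelihood test, Benjamini-Hochberg adjustment over all 15936 genes) differed between the 3 tumour comparisons. In wild-type males 4 members were higher in tumours (Smoc2, Sox9, Cd44 and Msi1) and 1 was lower (Lrig1), in a comparison that called 35.7% of all genes tested, 16.5% higher and 19.3% lower. In knock-in males 3 members were higher (Cd44, Prom1 and Ephb2) and none was called lower, against 20.4% of all genes called, 10.4% higher and 9.97% lower. In wild-type females 7 members were higher (all but Olfm4 and Lrig1) and Lrig1 was lower, against 49.1% of all genes called, 25.0% higher and 24.0% lower. The median log2 change of the 9 members was 0.56, 0.62 and 1.15 in the 3 comparisons, beside medians of 0.0054, 0.0066 and 0.0082 over all genes. These member medians include Olfm4, which was at or under the floor of 3 counts in most libraries. Its fitted change lay above the median in both male comparisons and below it in wild-type females. Cd44 was the member called in the same direction in all 3 tumour comparisons, where 4.13% of all genes were called higher in each. The comparisons have separate tumour and normal libraries, but the females and both male genotypes entered a single fit with a shared estimate of the spread.

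**Figure D2:**
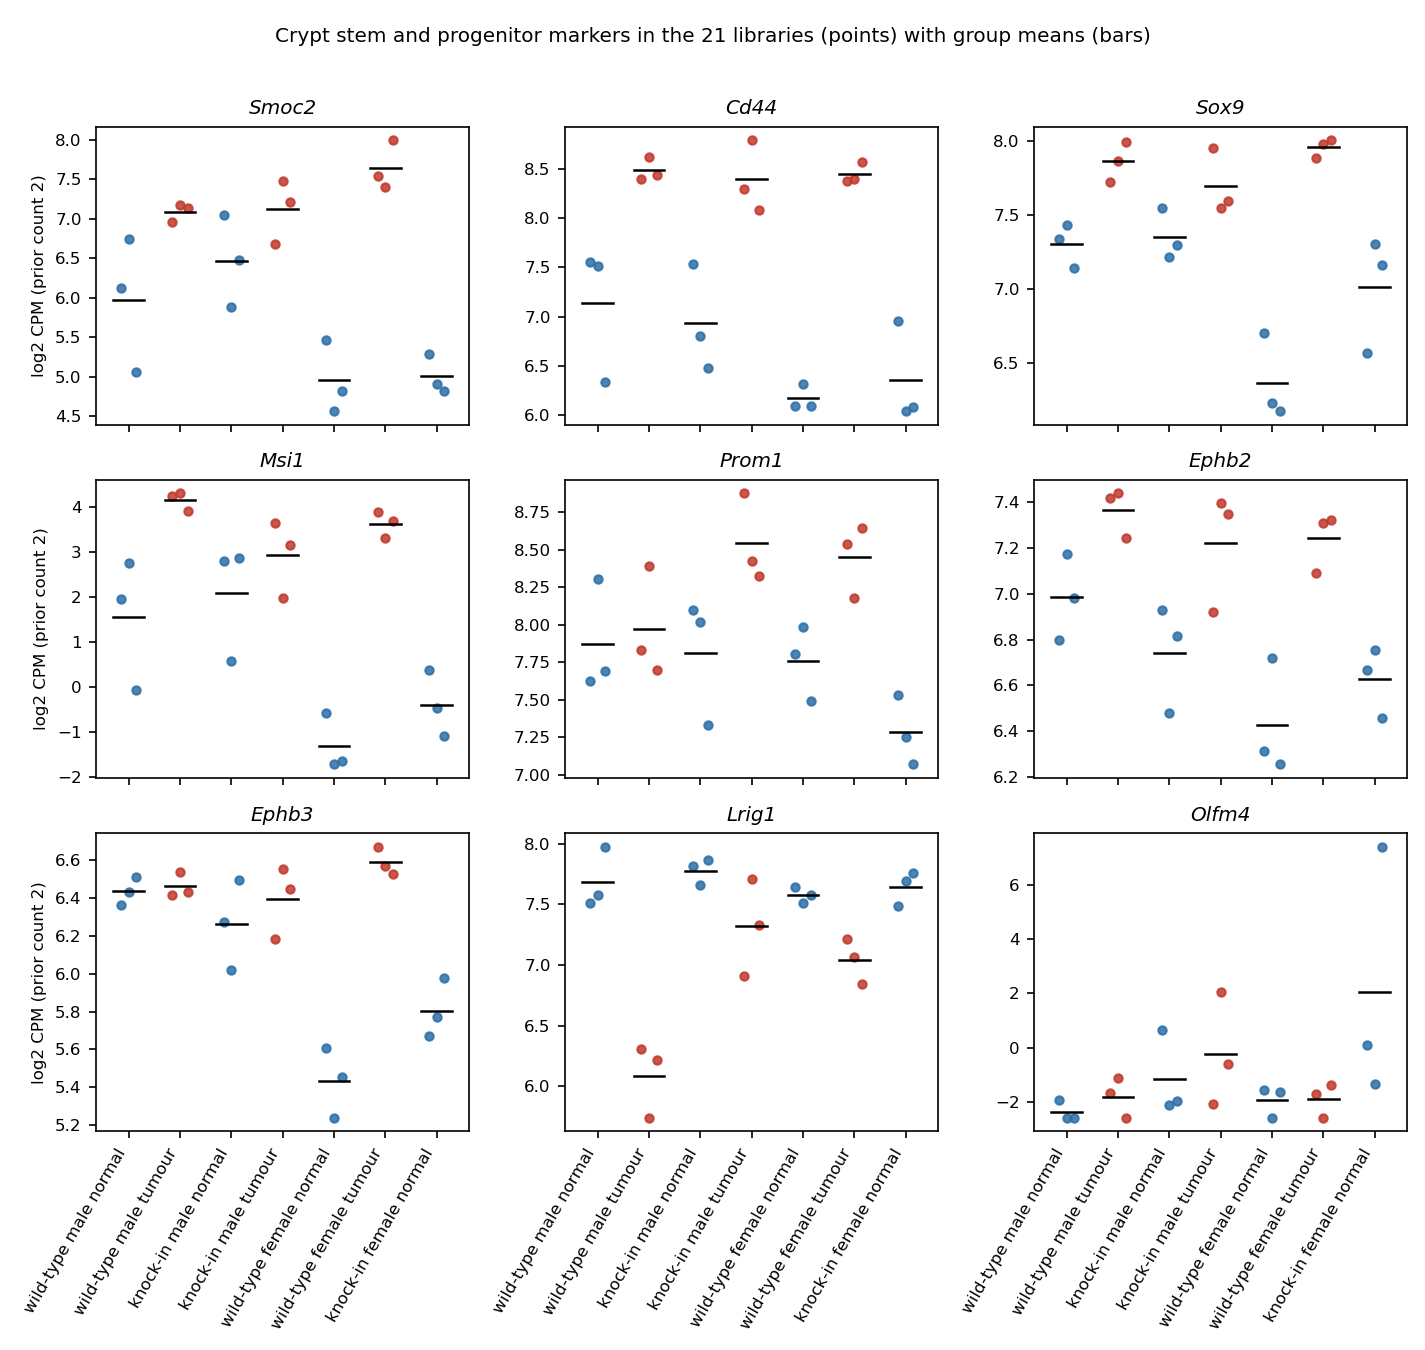
Log2 CPM (vertical axes, prior count 2, a separate range for each gene) of the 9 genes in the 21 libraries by group, tumours in red and normal colon in blue, with bars at the mean of the log2 values. Cd44 tumour points lie above the normal points of the same sex and genotype in all 3 pairs, Lrig1 lies lowest in wild-type male tumours, and Olfm4 is high in a single knock-in female normal library, at 169 CPM.

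**Figure D3:**
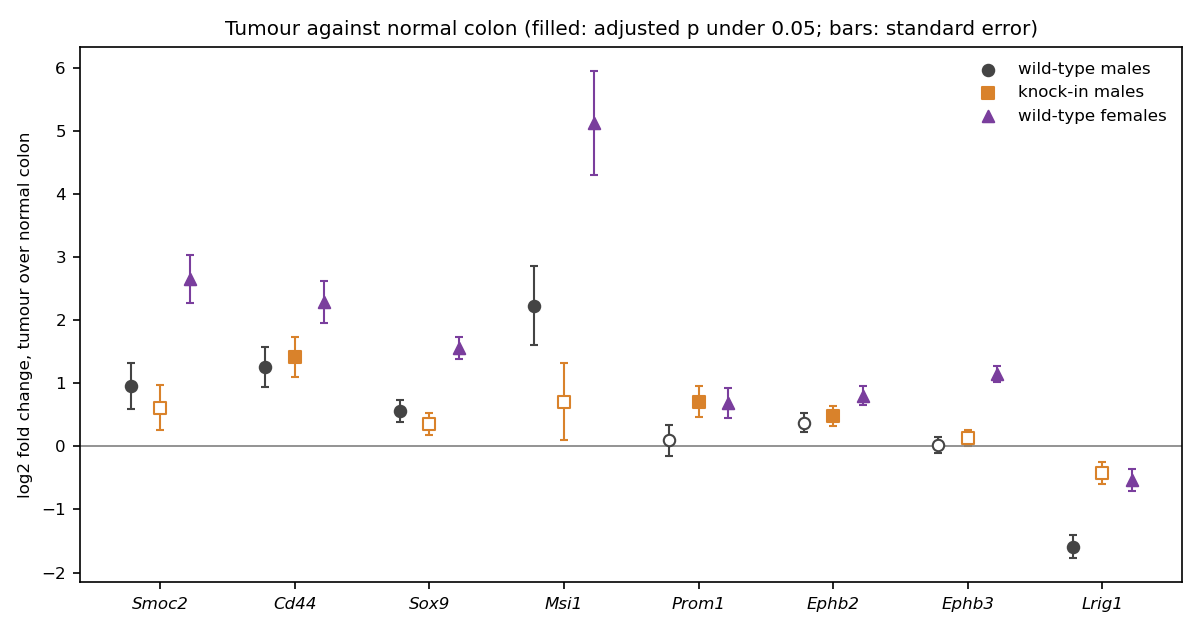
Log2 fold change of tumour over normal colon (vertical axis) for 8 members in wild-type males, knock-in males and wild-type females, with bars for the standard error and filled symbols where the adjusted p is under 0.05. Msi1 has the highest value, 5.13 in wild-type females, and Lrig1 is the member below 0 in all 3 comparisons with TMM scaling.

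Sox9 (ENSMUSG00000000567.5, chr11:112782224-112787760, plus strand, GRCm38) encodes a transcription factor of crypt base cells that Wnt signals induce. In wild-type males it measured 162, 173 and 141 CPM in the 3 normal libraries and 211, 233 and 255 CPM in the 3 tumours, groups that did not overlap. It rose by 0.56 on the log2 scale (SE 0.17, adjusted p = 0.0177), and the call was lost without wild-type male normal replicate 1 (adjusted p = 0.0502), normal replicate 3 (0.0845) or tumour replicate 3 (0.0716). In wild-type females it was at 104, 74.9 and 72.3 CPM in normal colon and at 236, 252 and 257 CPM in tumours, a rise of 1.56 (SE 0.18, adjusted p = 1.77e-06). In knock-in males the normal libraries had 187, 149 and 157 CPM and the tumours 247, 187 and 194 CPM, ranges that touch, and the difference of 0.35 (SE 0.17) did not pass (adjusted p = 0.150). Knock-in female normal colon measured 94.99, 158 and 143 CPM.
Tumour levels of Sox9 thus had group means of 209 to 248 CPM in the 3 tumour groups, which overlap, whereas the normal groups ran from 83.7 ± 17.6 CPM (SD, n = 3) in wild-type females to 164 ± 20.04 CPM in knock-in males.

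Msi1 (ENSMUSG00000054256.11, chr5:115429599-115455698, plus strand) encodes Musashi 1, an RNA-binding protein that represses translation of Numb, an inhibitor of Notch signalling. Apart from Olfm4 it had the lowest mean level per kilobase of the members in each of the 7 groups, and it had the highest fold change in the wild-type tumour comparisons. Wild-type male normal libraries had 3.73, 6.58 and 0.795 CPM and the tumours 18.6, 19.5 and 14.9 CPM, without overlap, a rise of 2.23 on the log2 scale (SE 0.63, adjusted p = 0.0108). In wild-type females, normal libraries had 12, 1 and 1 counts (0.507, 0.139 and 0.155 CPM) and tumours 108, 83 and 116 counts (14.7, 9.70 and 12.6 CPM). The fitted rise of 5.13 (SE 0.82, adjusted p = 6.93e-05) rests on those few counts in normal colon, so its size is uncertain while every tumour library was above every normal library. In knock-in males the groups overlapped, at 6.82, 1.33 and 7.17 CPM in normal colon and 12.4, 3.78 and 8.70 CPM in tumours, and the difference of 0.71 (SE 0.61) did not pass (adjusted p = 0.419). The paralog Msi2 was far more abundant, in wild-type males at 162 ± 11.3 CPM in normal colon and 188 ± 22.9 CPM in tumours (SD, n = 3). Msi2 passed in wild-type females (log2 change 0.34, SE 0.12, adjusted p = 0.0265) and not in wild-type males (0.22, adjusted p = 0.165) or knock-in males (0.32, adjusted p = 0.0653).

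Smoc2 (ENSMUSG00000023886.10, chr17:14279506-14404790, plus strand) encodes a secreted calcium-binding matrix protein found in crypt base stem cells, and it is also made outside the epithelium. Wild-type female normal libraries had 44.2, 23.5 and 28.2 CPM and the tumours 186, 169 and 255 CPM, a rise of 2.65 (SE 0.38, adjusted p = 3.07e-05). Wild-type male normal libraries were spread over 69.5, 107 and 33.1 CPM, and the tumours had 124, 144 and 140.2 CPM. The rise in males was 0.96 (SE 0.36, adjusted p = 0.0486), close to the threshold. It was lost with the replicate number as a block (adjusted p = 0.0922) and in 5 of the 6 fits that left out 1 library of these groups, among them wild-type male normal replicate 3 (log2 change 0.62, adjusted p = 0.191), and kept without normal replicate 2. In knock-in males the groups overlapped, at 132, 59.0 and 89.0 CPM in normal colon and 103, 178 and 148 CPM in tumours (log2 change 0.62, SE 0.36, adjusted p = 0.226). Knock-in female normal colon had 38.9, 29.99 and 28.2 CPM, within the range of wild-type female normal colon. The fibroblast marker sum in females was 1170 to 1402 CPM in wild-type normal colon, 2238 to 2806 CPM in knock-in normal colon and 1809 to 2912 CPM in wild-type tumours. Its part in the Smoc2 levels was not tested. The family member Smoc1 rose in wild-type males (1.82, SE 0.45, adjusted p = 0.00464) and in wild-type females (3.45, SE 0.51, adjusted p = 3.04e-05), and in knock-in males its difference of 1.26 had an adjusted p of 0.0516.

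Olfm4 (ENSMUSG00000022026.7, chr14:79984081-80023139, plus strand) encodes olfactomedin 4, a secreted glycoprotein that marks stem cells of the small intestine. It had 0 to 5 counts in 17 of the 21 libraries. The other 4 were knock-in male normal replicate 1 with 15 counts, knock-in male tumour replicate 2 with 67 counts, knock-in female normal replicate 1 with 15 counts and knock-in female normal replicate b with 2205 counts, or 169 CPM. All 4 are knock-in libraries, and within each of these groups the libraries differed from each other, with the 3 knock-in female normal libraries at 0.892, 0.225 and 169 CPM. Olfm4 was called higher in knock-in than in wild-type female normal colon (log2 change 8.65, SE 2.26, adjusted p = 0.0189), and without replicate b the adjusted p was 0.369 at a log2 change of 2.16. The call was also lost without wild-type female normal replicate 1 (adjusted p = 0.0857) or 2 (0.0819). No fold change of Olfm4 is given for the other comparisons, in which most libraries were at or under the floor of 3 counts. In those comparisons it passed no test. Exons of Gm6999, a lincRNA on the same strand, overlap 153 bases of Olfm4 exons, so reads there cannot be told apart by strand. Gm6999 is not among the genes counted under that name.

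Cd44 (ENSMUSG00000005087.17, chr2:102811141-102901665, minus strand) encodes the surface receptor for hyaluronan and is a Wnt target in the crypt, and it is also present on immune and stromal cells. Wild-type male normal libraries had 188, 183 and 80.2 CPM and tumours 337, 394 and 349 CPM. Knock-in male normal libraries had 185, 111 and 89.1 CPM and tumours 316, 445 and 272 CPM. Wild-type female normal libraries had 68.1, 79.4 and 67.9 CPM and tumours 334, 337 and 380.1 CPM. Tumour and normal libraries did not overlap in any of the 3 pairs of groups, a separation seen for 52.4%, 33.6% and 58.4% of all genes tested. Cd44 rose by 1.26 in wild-type males (SE 0.32, adjusted p = 0.00561), 1.42 in knock-in males (SE 0.32, adjusted p = 0.00700) and 2.29 in wild-type females (SE 0.33, adjusted p = 2.60e-05), or 2.39-fold, 2.68-fold and 4.88-fold. All 3 calls were kept in each of the 6 fits that left out 1 library. The mean tumour level was 360 ± 30.2 CPM in wild-type males, 344 ± 90.1 CPM in knock-in males and 350.4 ± 25.8 CPM in wild-type females (SD, n = 3), groups that overlapped. The sum of the 10 immune markers was 174 to 219.6 CPM in wild-type male tumours against 107 to 215 CPM in normal colon, 108 to 194 against 189 to 321 CPM in knock-in males, and 149 to 206 against 106 to 203 CPM in wild-type females, ranges that overlap in each pair. In wild-type females the sum of the 8 fibroblast markers was 1809 to 2912 CPM in tumours and 1170 to 1402 CPM in normal colon, with 5 markers called higher and 1 lower. The sum of the 5 endothelial markers there was 140 to 219 CPM in tumours and 70.2 to 98.3 CPM in normal colon, with 3 called higher. Neither list overlapped between these groups. In males the fibroblast sums overlapped, at 2285 to 2696 against 2432 to 2727 CPM for the wild-type and 2859 to 4170 against 2277 to 3687 CPM for the knock-in. The part of these cells in the Cd44 differences was not tested. Spp1, which encodes osteopontin, a ligand of CD44, also rose in tumours of wild-type males (2.10, SE 0.78, adjusted p = 0.0467), knock-in males (3.45, SE 0.83, adjusted p = 0.0108) and wild-type females (6.90, SE 1.03, adjusted p = 4.89e-05). The call of Spp1 in wild-type males was lost in 5 of 6 fits that left out 1 library, with adjusted p-values up to 0.156 without normal replicate 1.

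Prom1 (ENSMUSG00000029086.15, chr5:43993620-44102032, minus strand) encodes prominin 1, or CD133, a membrane protein of protrusions that marks crypt base cells and some differentiated epithelia. In wild-type females normal libraries had 224, 254 and 179.6 CPM and tumours 372, 289.7 and 400.1 CPM, a rise of 0.69 (SE 0.24, adjusted p = 0.0237). In knock-in males normal libraries had 274, 259 and 161 CPM and tumours 469.7, 343 and 321 CPM, a rise of 0.71 (SE 0.24, adjusted p = 0.0444). For wild-type males the test did not pass: the normal libraries had 197, 316 and 207 CPM and the tumours 227, 336 and 207 CPM, which overlap almost fully (log2 change 0.09, SE 0.24, adjusted p = 0.795). The tests of a difference in the Prom1 tumour change did not pass either, between the male genotypes (0.62, SE 0.34, adjusted p = 0.260) or between the wild-type sexes (0.60, SE 0.34, adjusted p = 0.470). In knock-in males the call of Prom1 was lost in 5 of 6 fits that left out 1 library, down to a log2 change of 0.48 without tumour replicate 1 (adjusted p = 0.210), with DESeq2 size factors (adjusted p = 0.0506), without the low-count filter (0.0590) and with only these 2 groups fitted (0.115). It was lost in wild-type females in 4 of 6, with adjusted p-values up to 0.0991 without normal replicate 3. Exons of Gm16401 on the opposite strand, which is not among the genes counted under that name, overlap 424 bases of Prom1 exons. The strand setting of the counting is not given in the sources used here, so reads of the 2 genes cannot be told apart there.

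Ephb2 (ENSMUSG00000028664.14, chr4:136647539-136835988, minus strand) and Ephb3 (ENSMUSG00000005958.15, chr16:21204755-21223305, plus strand) encode receptor tyrosine kinases that Wnt signals induce at the crypt base, where repulsion by ephrin-B ligands on maturing cells sorts the compartments. Ephb2 had 111, 144 and 126 CPM in wild-type male normal colon and 171, 173 and 151 CPM in tumours, with no overlap, but the difference of 0.38 (SE 0.15) did not pass (adjusted p = 0.0645). It rose in wild-type females, from 79.3, 105 and 76.1 CPM to 136, 159 and 160.1 CPM (log2 change 0.81, SE 0.16, adjusted p = 0.000325). It also rose in knock-in males, from 122, 89.1 and 112 CPM to 121, 168 and 163 CPM (0.49, SE 0.15, adjusted p = 0.0335), although tumour replicate 1 was within the normal range. That call was lost without knock-in male normal replicate 2 (0.32, adjusted p = 0.177) or 3 (adjusted p = 0.0725), and without tumour replicate 2 (0.161) or 3 (0.0952). Ephb3 rose in wild-type females, from 48.6, 37.6 and 43.6 CPM to 102, 94.8 and 91.8 CPM (1.15, SE 0.13, adjusted p = 1.94e-06). In wild-type males it had 82.1, 86.1 and 91.0 CPM in normal colon and 85.2, 92.8 and 86.1 CPM in tumours (0.03, SE 0.13, adjusted p = 0.901), and in knock-in males 77.0, 64.7 and 89.8 CPM against 72.6, 93.6 and 87.0 CPM (0.13, SE 0.13, adjusted p = 0.485). The test of the sex difference in the tumour change of Ephb3 passed (1.12, SE 0.18, adjusted p = 0.00935). The 3 tumour groups of Ephb3 lay between 72.6 and 102 CPM and the male normal groups between 64.7 and 91.0 CPM, whereas the wild-type female normal group lay between 37.6 and 48.6 CPM.

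Of the ephrin-B ligands, Efnb1 and Efnb2 were lower in tumours. Efnb1 fell by 0.76 in wild-type males (SE 0.17, adjusted p = 0.00190), by 0.87 in knock-in males (SE 0.17, adjusted p = 0.00300) and by 1.32 in wild-type females (SE 0.17, adjusted p = 5.65e-06). In wild-type males its level was 93.8 ± 13.2 CPM in normal colon and 55.4 ± 5.50 CPM in tumours (SD, n = 3). Efnb2 fell in wild-type males (-0.51, SE 0.17, adjusted p = 0.0271) and wild-type females (-1.51, SE 0.18, adjusted p = 2.41e-06), and in knock-in males its difference was -0.28 (adjusted p = 0.241). The male call of Efnb2 was lost with pan-epithelial scaling (-0.17, adjusted p = 0.342), and without normal replicate 3 (adjusted p = 0.120), tumour replicate 1 (0.0728) or tumour replicate 3 (0.111). Efnb3 was under 1 CPM on average in every group and passed no tumour test.

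Lrig1 (ENSMUSG00000030029.14, chr6:94604529-94700158, minus strand) encodes a transmembrane protein that restrains ERBB receptors and marks a largely quiescent crypt population. It was the member called between the tumours of the male genotypes. Wild-type male tumours had 78.9, 53.2 and 74.1 CPM against 182, 191 and 251 CPM in wild-type male normal colon, a fall of 1.59 on the log2 scale (SE 0.18, adjusted p = 9.85e-06). Knock-in male tumours had 120.0, 209.6 and 161 CPM against 225, 202 and 233 CPM in knock-in male normal colon, ranges that overlap, and the difference of -0.43 (SE 0.18) did not pass (adjusted p = 0.0921). Without knock-in male tumour replicate 2, the library at 209.6 CPM, this difference passed (-0.68, adjusted p = 0.0227). Between the tumours of the 2 male genotypes Lrig1 was 2.36-fold higher in the knock-in (log2 change 1.24, SE 0.18, adjusted p = 0.00253). This was the single member called in that comparison, in which 14.5% of all genes were called and 9.30% called higher, and it was kept in all 6 fits that left out 1 library and under all 8 alternative settings. In normal colon of males the 2 genotypes differed by 0.08 (SE 0.18, adjusted p near 1), with overlapping libraries. The difference between genotypes in the tumour change was 1.16 (SE 0.25, adjusted p = 0.0411, where 1.51% of all genes passed and 1.14% passed as higher), and this was less stable: it was lost in 7 of 12 fits that left out 1 library, with adjusted p-values up to 0.131 without wild-type male normal replicate 3, and under 4 of 8 alternative settings, among them pan-epithelial scaling (0.91, adjusted p = 0.0797). Under those 4 settings 0 to 2 of all genes tested passed.
In wild-type females the tumours had 149, 133 and 114 CPM and normal colon 199.9, 182 and 191 CPM. The fall of 0.53 there (SE 0.18, adjusted p = 0.0192) turned to a difference of 0.16 (adjusted p = 0.434) when libraries were scaled to equal pan-epithelial counts. The call was also lost with library totals (-0.39, adjusted p = 0.0683) and without wild-type female normal replicate 1 (adjusted p = 0.0586) or tumour replicate 3 (0.0889). Female wild-type tumours were above male wild-type tumours by 0.93 (SE 0.18, adjusted p = 0.0261), a comparison with 0.860% of all genes called, 0.402% higher, and Lrig1 as the single member. That call was lost without wild-type female tumour replicate 1 (adjusted p = 0.0816) or 2 (0.0703), or without wild-type male tumour replicate 2 (0.110) or 3 (0.1003). Normal colon was steadier, with group means of 191 ± 8.96 CPM in wild-type females, 201 ± 19.4 CPM in knock-in females, 208 ± 37.8 CPM in wild-type males and 219.8 ± 16.0 CPM in knock-in males (SD, n = 3). Libraries of these normal groups overlapped, except that wild-type females, at 182 to 199.9 CPM, lay below knock-in males, at 202 to 233 CPM. In ascending order of group means the tumours came first: 68.7 ± 13.6 CPM in wild-type males, 132 ± 17.1 CPM in wild-type females and 164 ± 44.8 CPM in knock-in males, where the last 2 overlap.
On the opposite strand, exons of Slc25a26 overlap 144 bases of Lrig1 exons. Slc25a26 was at 6.72 to 9.98 CPM in group means and passed none of the tumour tests (log2 change -0.17, adjusted p = 0.663, in wild-type males). The paralog Lrig3, which was named after its values were seen, fell in all 3 tumour comparisons: by 2.26 in wild-type males (SE 0.25, adjusted p = 8.86e-06), by 1.01 in knock-in males (SE 0.24, adjusted p = 0.00877) and by 2.40 in wild-type females (SE 0.25, adjusted p = 1.05e-06). Like Lrig1 it was higher in male tumours of the knock-in (1.197, SE 0.25, adjusted p = 0.00866), at 45.2 ± 9.61 against 19.3 ± 5.27 CPM.

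Among wild-type normal colon libraries, 6 of the 9 members were lower in females than in males and none was higher, in a comparison that called 15.9% of all genes, 5.74% higher and 10.2% lower. Ephb3 fell by 0.99 (SE 0.13, adjusted p = 9.46e-05) and Sox9 by 0.92 (SE 0.17, adjusted p = 0.00198). Msi1 was lower by a fitted 3.42 (SE 0.82, adjusted p = 0.0106), Smoc2 by 1.12 (SE 0.37, adjusted p = 0.0485), Cd44 by 1.07 (SE 0.32, adjusted p = 0.0303) and Ephb2 by 0.55 (SE 0.15, adjusted p = 0.0221). Prom1 (-0.13, adjusted p = 0.750) and Lrig1 (-0.12, adjusted p = 0.673) did not pass. Leaving out 1 library kept Ephb3 and Sox9 in 6 of 6 fits and Msi1 in 5, but Ephb2 in 3, Smoc2 in 2 and Cd44 in 1. With only these 2 groups in the fit 2 members passed, where 10.9% of all genes tested were called, 3.82% higher and 7.08% lower. Smoc2 (adjusted p = 0.114), Cd44 (0.0588) and Ephb2 (0.0611) did not pass there. Msi1 was not tested in that fit, because its counts fell under the low-count filter. The wild-type female normal libraries entered this comparison as well as the female tumour comparison and the female genotype comparison, so these share 3 libraries. Other lists differed along with the members. The fibroblast sum was 1170 to 1402 CPM in wild-type female and 2432 to 2727 CPM in wild-type male normal colon, the endothelial sum 70.2 to 98.3 against 141 to 241 CPM, the smooth muscle sum 1983 to 4590 against 2860 to 9721 CPM, and the colonocyte differentiation sum 2744 to 6994 against 1809 to 4432 CPM. The pan-epithelial sum was 11126 to 12293 against 8935 to 11807 CPM. Their part in the difference was not tested.
In knock-in normal colon edgeR called 0 members between the sexes, with 0.584% of all genes called. An unadjusted p under 0.05 was found for 5 members: Smoc2, Prom1, Msi1 and Ephb3, lower in females, and Olfm4, higher. The Olfm4 value rests largely on knock-in female normal replicate b, with 2205 counts. The DESeq2 Wald test called 3 lower in females (Smoc2, Msi1 and Ephb3). Over all genes 2432 had an unadjusted p under 0.05, and the Wald test called 3.64%, 1.32% higher and 2.32% lower. The edgeR values were -1.52 for Smoc2 (SE 0.37, adjusted p = 0.0724), -2.84 for Msi1 (SE 0.73, adjusted p = 0.0810) and -0.46 for Ephb3 (SE 0.13, adjusted p = 0.0921). All 3 passed when knock-in male normal replicate 2 was left out (adjusted p = 0.0201, 0.0159 and 0.0203).

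Between genotypes in male normal colon edgeR called 0 of the 9 members, 0 had an unadjusted p under 0.05, and the DESeq2 Wald test called 0. That comparison called 0.0126% of all genes, although 533 genes had an unadjusted p under 0.05. Sox9 was higher in knock-in female normal colon (0.65, SE 0.17, adjusted p = 0.0170), besides Olfm4, where 16.0% of all genes were called and 8.97% called higher. The Sox9 libraries overlapped, since knock-in replicate 1 at 94.99 CPM lay below wild-type replicate 1 at 104 CPM, and the call was lost without wild-type replicate 2 (adjusted p = 0.0881) or 3 (0.0571) or knock-in replicate a (0.110) or b (0.0549). Ephb3 was at 50.8, 54.4 and 62.7 CPM in the knock-in and at 48.6, 37.6 and 43.6 CPM in the wild-type. Its difference of 0.37 (SE 0.13) did not pass (adjusted p = 0.0603). It passed with library totals (0.45, adjusted p = 0.0188), pan-epithelial scaling (0.53, adjusted p = 0.0136) and the DESeq2 Wald test (0.37, adjusted p = 0.0380). Smooth muscle sums were 6874 to 9716 CPM in knock-in and 1983 to 4590 CPM in wild-type female normal colon, and fibroblast sums 2238 to 2806 against 1170 to 1402 CPM. Their part in the Sox9 difference was not tested. Beside Ephb3, the test of whether the tumour change differed between wild-type sexes passed for Lrig1 (1.06, SE 0.25, adjusted p = 0.0478), with 1.12% of all genes called and 0.929% higher, and this was lost in all 12 fits that left out 1 library (adjusted p up to 0.110). Sox9 was just short of the threshold (1.01, SE 0.24, adjusted p = 0.0511) and passed under 5 of 8 alternatives: library totals (adjusted p = 0.0220), pan-epithelial scaling (0.00716), the DESeq2 Wald test (0.00808), only the compared groups (0.0347) and the replicate block (0.0411). For the difference between the sexes in the genotype effect edgeR called 0 members, 2 had an unadjusted p under 0.05, the DESeq2 Wald test called 0, and 2.54% of all genes were called.

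How the libraries were scaled set the size of the tumour changes and the direction of some. Of the 12 pan-epithelial genes, TMM scaling gave 1 higher and 7 lower in wild-type male tumours (median log2 change -0.47). It gave 1 higher and 1 lower in knock-in males (-0.17), and 1 higher and 10 lower in wild-type females (-0.79). Among all genes 19.3%, 9.97% and 24.0% were called lower in these comparisons. Scaling to equal geometric mean counts of the 12 pan-epithelial genes moved the median log2 change of all genes to 0.34 for wild-type males, 0.14 for males of the knock-in and 0.69 for females. The split of all genes called then became 34.9% higher and 11.0% lower in wild-type males, 13.6% and 5.70% in knock-in males, and 57.7% and 9.61% in wild-type females, and library totals gave 31.7% and 19.3% in the last. For female against male wild-type normal colon the split was 1.60% higher and 14.3% lower, and 3.38% and 12.4% with library totals. For female genotypes it was 11.9% and 2.14%, and 11.3% and 4.22% with library totals, and for wild-type tumours of the 2 sexes 4.27% and 0.408%, and 0.772% and 0.489% with library totals. For knock-in normal colon of the sexes TMM gave 0.182% and 0.402% and library totals 0.0690% and 0.0565%. For the sex difference in the tumour change pan-epithelial scaling gave 4.91% and 0.0816%, and for that in the genotype effect TMM gave 1.76% and 0.778% and library totals 2.52% and 0.552%. Members rose more on this scale: Cd44 by 1.54 for wild-type males (adjusted p = 0.00282), 1.53 for males of the knock-in (0.00935) and 2.96 for females (5.41e-06). Relative to the median of all genes these are 1.199, 1.40 and 2.27. Ephb2 (0.72, adjusted p = 0.00190) and Ephb3 (0.37, adjusted p = 0.0335) then passed in wild-type males, although Ephb3 lay 0.02 from the median of all genes. Lrig1 stayed lower in wild-type male tumours (-1.22, adjusted p = 8.58e-05).

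**Figure D4:**
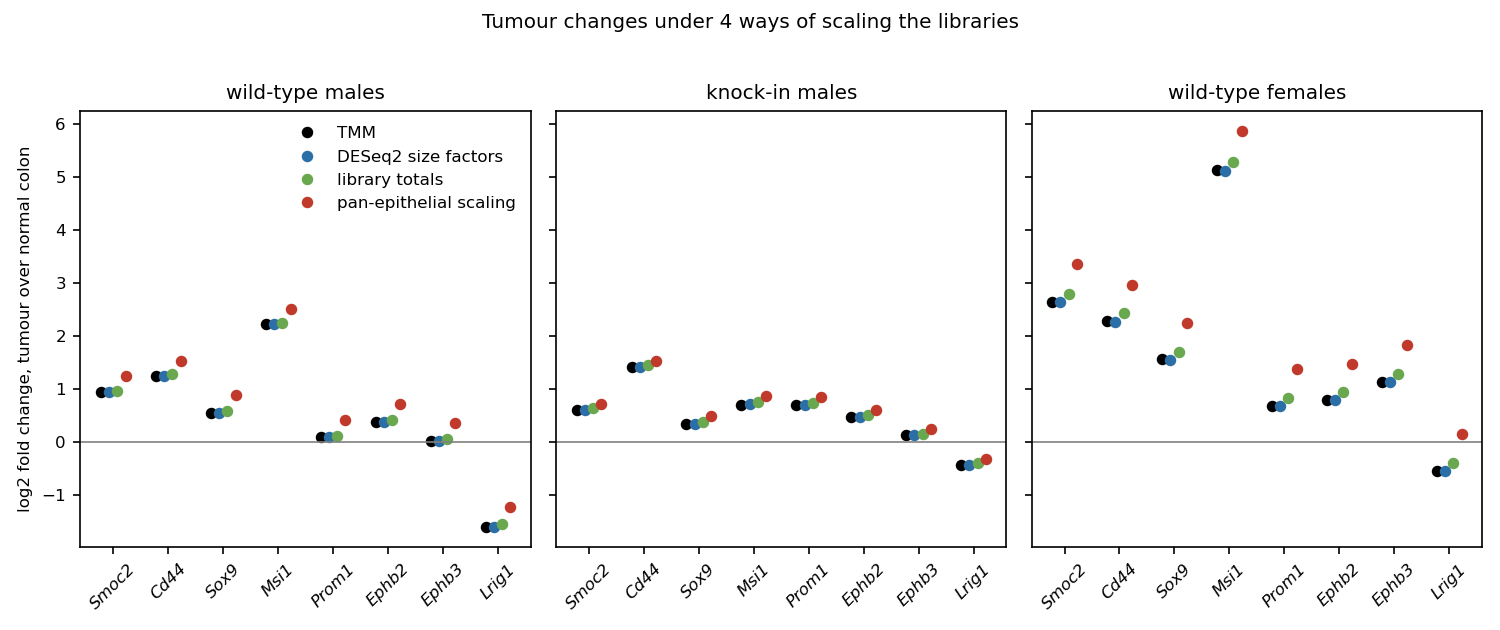
Log2 fold change of tumour over normal colon (vertical axis) of 8 members under TMM, DESeq2 size factors, library totals and scaling to equal pan-epithelial counts, in wild-type males, knock-in males and wild-type females. The pan-epithelial values are higher than the others, by most in wild-type females, where Lrig1 is at -0.53 with TMM, -0.39 with library totals and 0.16 with pan-epithelial scaling.

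Of 20 other crypt stem and progenitor genes, 10 were higher and 4 lower in wild-type male tumours (median log2 change 0.81), 3 higher and 2 lower in knock-in males (0.53), and 15 higher and 4 lower in wild-type females (1.47). The shares of all genes called higher and lower were 16.5% and 19.3%, 10.4% and 9.97%, and 25.0% and 24.0%, so the knock-in male counts were near those of all genes. By the naming rule these include Sp5 and Axin2, which are Wnt target genes. Axin2 rose by 1.90 in wild-type males (SE 0.43, adjusted p = 0.00294) and by 3.75 in wild-type females (SE 0.47, adjusted p = 9.06e-06), and had 0.53 in knock-in males (adjusted p = 0.374). Sp5 rose by 2.40 (SE 0.78, adjusted p = 0.0269) and 6.66 (SE 1.11, adjusted p = 0.000160), with 0.95 in knock-in males (adjusted p = 0.387). The wild-type male call of Sp5 was lost without normal replicate 1 (adjusted p = 0.0797) or 3 (0.0721) or tumour replicate 1 (0.0692) or 3 (0.0515). At the other end Aldh1a1, an aldehyde dehydrogenase used as a stem cell marker, fell by 2.92 (SE 0.40, adjusted p = 4.15e-05) and 3.53 (SE 0.41, adjusted p = 3.14e-06), with -0.16 in knock-in males (adjusted p = 0.775). Reg4, a marker of colonic deep crypt secretory cells, fell by 1.72 (SE 0.42, adjusted p = 0.00492) and 1.07 (SE 0.41, adjusted p = 0.0391), with -0.63 in knock-in males (adjusted p = 0.279). Lgr5, the receptor that marks crypt base stem cells, named after its values were seen, rose in wild-type females from 8.55 ± 4.96 to 161 ± 33.9 CPM (SD, n = 3, log2 change 4.15, SE 0.63, adjusted p = 6.91e-05) and did not pass in wild-type males (1.09, adjusted p = 0.140) or knock-in males (1.47, adjusted p = 0.0728). Without wild-type male normal replicate 2 it passed in wild-type males (1.71, adjusted p = 0.0408), and without knock-in male normal replicate 1 in knock-in males (2.10, adjusted p = 0.0311). In wild-type normal colon 10 of the 20 were lower in females and none was called higher.

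Of 26 family members and binding partners, 6 were higher and 8 lower in wild-type male tumours, 3 and 5 in knock-in males, and 9 and 8 in wild-type females, with medians of 0.17, 0.14 and 0.23. Set against the shares of all genes given for the crypt list, the knock-in male count of higher genes was near that of all genes. Sparcl1, a matrix protein related to SMOC proteins, fell in all 3 comparisons, with log2 changes of -2.76 (SE 0.38, adjusted p = 5.70e-05), -1.58 (SE 0.36, adjusted p = 0.00750) and -2.41 (SE 0.37, adjusted p = 5.94e-05). Sox10, a SOX factor of enteric glia, fell by 3.73 in wild-type males (SE 0.98, adjusted p = 0.00675), where it was at 0 in at least 1 tumour library, with -0.52 in knock-in males (adjusted p = 0.630) and -0.70 in wild-type females (adjusted p = 0.562).
The 12 colonocyte differentiation genes had 9 lower in wild-type male tumours, 5 lower in knock-in males and 10 lower in wild-type females, with none called higher and medians of -2.71, -0.83 and -2.91. Aqp8, a water channel of surface colonocytes, fell by 5.24 (SE 0.61, adjusted p = 2.30e-05), 2.23 (SE 0.51, adjusted p = 0.00899) and 6.85 (SE 0.65, adjusted p = 1.01e-06). Cyp2c55, a cytochrome P450 of colon epithelium, fell by 5.17 (SE 1.03, adjusted p = 0.00144) and 6.21 (SE 1.08, adjusted p = 0.000241) in wild-type males and females, with -1.33 in knock-in males (adjusted p = 0.282). In knock-in against wild-type male tumours, where Lrig1 was higher, 3 of these 12 were higher and none was called lower. Over all genes 9.30% were called higher. The median of the list was 1.36, and the summed level was 736 to 1746 CPM against 645 to 788 CPM. The smooth muscle sum there was 887 to 1005 CPM against 192 to 754 CPM, with a median log2 change of 1.24 and no marker called. Fibroblast sums were 2859 to 4170 against 2285 to 2696 CPM, with 1 marker called higher. The pan-epithelial, immune and endothelial sums overlapped. The part of these lists in the Lrig1 difference was not tested.

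Levels can be compared between the genes as CPM per kilobase of annotated exon (GENCODE vM21). In wild-type male normal colon the order was Sox9 at 38.4 ± 3.84, Lrig1 at 37.3 ± 6.77, Prom1 at 33.5 ± 9.20 and Cd44 at 22.2 ± 8.98, then Ephb3 at 13.0 ± 0.666, Ephb2 at 10.1 ± 1.31 and Smoc2 at 10.1 ± 5.34, with Msi1 at 0.638 ± 0.499 CPM per kilobase (SD, n = 3). The first 3 differed by less than their spread, as did Ephb2 and Smoc2. In wild-type male tumours Sox9 at 56.4 ± 5.29 and Cd44 at 53.1 ± 4.45 came first and did not differ beyond their spread, and Lrig1 had moved from the second place to the seventh, at 12.3 ± 2.44, beside Ephb3 at 13.3 ± 0.625 and Ephb2 at 13.1 ± 0.947. In wild-type female normal colon Lrig1 at 34.2 ± 1.60 and Prom1 at 30.5 ± 5.19 were ahead of Sox9 at 20.3 ± 4.26 and Cd44 at 10.6 ± 0.969.

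The members moved by different amounts over the 7 groups, and some shared directions. Smoc2, Sox9, Cd44, Prom1, Msi1, Ephb2 and Ephb3 had positive log2 changes in the 3 tumour comparisons with TMM. All of these except Prom1 were called lower in female than in male wild-type normal colon. As a measure of likeness, the root mean square difference of log2 CPM group means, each gene centred over its 7 groups, was 0.18 between Ephb2 and Ephb3 and 0.19 between Sox9 and Ephb3, and it was 0.31 between Smoc2 and Cd44. It reached 2.29 between Lrig1 and Msi1, and 2.70 between Olfm4 and Msi1. Among 12559 candidate genes with a mean of at least 50 counts in a group, the nearest to each member were Ptma and Dnajc18 for Sox9 (0.070 and 0.077), Lef1 and Gdf11 for Msi1 (0.14 and 0.15), Gls2 and Ccdc141 for Smoc2 (0.10 and 0.12), and Nrep and Prex2 for Cd44 (0.13 and 0.15). For Prom1 they were Lpgat1 and Mex3c (0.051 and 0.11), for Ephb2 Srgap2 and Plekhn1 (0.067 and 0.071), for Ephb3 Slc16a13 and Ldlrad4 (0.093 and 0.11), and for Lrig1 Cpeb1 and Col8a1 (0.15 and 0.15). For Olfm4 the nearest were Padi1 and Muc5b (0.65 and 0.67), a likeness that rests on 1 library. These are descriptions over 7 group means that share their libraries and depth. The measure counts the size of the changes as well as their direction.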

How the data were processed

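RNA sequencing measured gene expression in 21 libraries of mouse colon. Total RNA was depleted of ribosomal RNA with RNase H and reverse transcribed with random hexamers, per the labels' protocols. The submitters' processing notes name Trimmomatic, HISAT2, featureCounts and DESeq2 and the build mm10, which is GRCm38. The annotation and the strand setting are not given in the sources used here. The table deposited by the authors holds raw counts per gene. In its header 2 columns of the knock-in female normal group carry the same name, and these were used as replicates a and b, without a number.

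The members and gene lists were chosen with earlier results of these data known. Genes were tested with the quasi-likelihood F test of edgeR (edgeR 4.0.16, limma 3.58.1, R 4.3.3), two-sided, on the deposited counts, with TMM scaling, filterByExpr by group, robust dispersion, 1 coefficient per group and all 21 libraries in a single fit. Benjamini-Hochberg adjustment was over 15936 genes in each of 9 comparisons of groups and 3 interactions, with a threshold of 0.05. The SE of a change is its log2 value divided by the square root of F. The test was checked on simulated counts in which some genes changed in wild-type male tumours alone. Every group had the same spread there, so the check does not cover groups of unequal spread. CPM uses TMM-scaled totals, and log2 CPM a prior count of 2. Counting error alone underlies the floor of 3 counts. No 2 libraries of a group agreed within counting noise (chi-square per degree of freedom of 6.98 or more over genes).

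All 9 members are named. From each list the 2 highest and 2 lowest called genes in wild-type male tumours are named, with the ephrin-B ligands and Msi2. Lgr5, Lrig3 and the genes of the closing section were named after their values were seen. Same-numbered libraries deviated together for all 3 numbers in the wild-type male tumour comparison (correlations over genes of 0.17, 0.17 and 0.21), in no other comparison for all 3. The numbers come from the sample titles, which do not say what they share.

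Alternatives were DESeq2 size factors, library totals, scaling to the 12 pan-epithelial genes, no low-count filter, the DESeq2 Wald test (DESeq2 1.42.0), a fit of the compared groups alone, a block for replicate number on the 18 numbered libraries, libraries with a running number of 152 and above as a covariate, and leaving out each library. Promoter windows are from RefSeq (GRCm38.p6). Figures were drawn with matplotlib 3.10.9.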

Additional observations from a re-analysis of the deposited data

Results flagged for a closer look

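The results below stand out because the effect of tumour or genotype differed between 2 groups by a test of the difference itself, fitted with edgeR and Benjamini-Hochberg adjusted over all genes. Among the 9 members these were Lrig1 between the male genotypes (difference of tumour changes 1.16 on the log2 scale, SE 0.25, adjusted p = 0.0411), Lrig1 between the wild-type sexes (1.06, SE 0.25, adjusted p = 0.0478) and Ephb3 between the wild-type sexes (1.12, SE 0.18, adjusted p = 0.00935). Ephb3 was kept in all 12 fits that left out 1 library, Lrig1 in 5 of 12 between the genotypes and in 0 of 12 between the sexes.

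Among the other crypt genes, Aldh1a1 had a difference of 2.77 between the tumour changes of the male genotypes (SE 0.52, adjusted p = 0.0406). Its tumours had 2.66, 2.91 and 3.77 CPM in wild-type males and 11.4, 18.1 and 13.8 CPM in knock-in males, and the call was lost in 7 of 12 fits that left out 1 library (adjusted p up to 0.128 without knock-in male normal replicate 3) and under 4 of 8 alternatives: pan-epithelial scaling (0.0642), only the compared groups (0.111), the replicate block (0.0548) and the library number covariate (0.0576). Ascl2, a transcription factor of crypt base stem cells, had a larger tumour change in wild-type females than in wild-type males by 2.12 (SE 0.39, adjusted p = 0.0138). Normal colon had 1.86, 3.20 and 2.79 CPM in females and 12.6, 12.0 and 11.5 CPM in males, and the call was lost without wild-type female normal replicate 1 (adjusted p = 0.0613) and with the library number covariate (1.99, adjusted p = 0.0621). Cdca7, a gene of dividing crypt cells, had a difference of 1.21 between the wild-type sexes (SE 0.27, adjusted p = 0.0401), lost in 10 of 12 fits that left out 1 library (adjusted p up to 0.112 without wild-type female normal replicate 1), with the replicate block (0.0612) and with the covariate (0.121).

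Among family members, the knock-in effect in normal colon was higher in females than in males for Olfm1, a relative of Olfm4 (1.72, SE 0.36, adjusted p = 0.0195), and for Ephb1, a relative of Ephb2 and Ephb3 (3.36, SE 0.83, adjusted p = 0.0384). Olfm1 had 14.9, 21.8 and 14.3 CPM in knock-in and 4.01, 5.15 and 7.12 CPM in wild-type female normal colon, and its call was lost in 4 of 12 such fits (adjusted p up to 0.0676 without knock-in female normal replicate a). Ephb1 was under 1 CPM in all 12 normal libraries, and its call was lost in 10 of 12 (adjusted p up to 0.125 without wild-type female normal replicate 1) and without the low-count filter (0.0538).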

How the results depend on the processing

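Of 128 gene results, 8 alternatives with all libraries kept gave 989 values, of which 892 kept their direction and side of the threshold, 71 lost the call, 22 gained it and 4 reversed. Leaving out 1 library gave 852 values, with 667 kept, 166 lost, 10 gained and 9 reversed. When the fit held the compared groups alone, 1 member passed for knock-in male tumours (4.72% of all genes), 0 for the female genotypes (18.8%), 2 for wild-type tumours of the sexes (8.10%) and 2 for wild-type normal colon of the sexes (10.9%). In the fit of the female genotypes Sox9 did not pass (adjusted p = 0.0625), and Olfm4 fell under the low-count filter and was not tested. Msi1 was likewise not tested in the fit of wild-type normal colon of the sexes. For the genotype difference in tumour change, 0 members passed with pan-epithelial scaling, only the compared groups, the replicate block or the library number covariate, settings that called 0, 1, 0 and 2 genes in all, so these counts say nothing of the members. For the sex difference in tumour change, 4 passed with pan-epithelial scaling (4.99% of all genes) and with the DESeq2 Wald test (3.82%), and 1 without the low-count filter (0.630%) and with the covariate (0.144%). The DESeq2 Wald test called 3 in knock-in normal colon of the sexes (3.64%). Leaving out 1 library moved the count of members between 3 and 6 in wild-type male tumours, 1 and 2 in knock-in male tumours, 6 and 8 in wild-type female tumours, 0 and 2 for the female genotypes, 0 and 1 for wild-type tumours of the sexes, 3 and 6 for wild-type normal colon of the sexes, 0 and 3 for knock-in normal colon of the sexes, 0 and 1 for the genotype difference and 1 and 3 for the sex difference in tumour change. Shares of all genes called were not computed for the fits that left out 1 library, so these ranges have no background beside them. In the wild-type female tumour comparison pan-epithelial scaling reversed Lrig1 to 0.16, Sox10 to 0.0075 and Efnb3 to 0.54, and the covariate reversed Efnb3 to 0.54. Leaving out 1 library gave -0.14 to 0.33 for Prom1 and -0.032 to 0.061 for Ephb3 in wild-type males, -0.032 to 0.25 for Ephb3 and -2.81 to 0.019 for Sox10 in knock-in males, and -0.87 to 0.19 for Efnb3 in wild-type females. The causes were not tested.

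A block for replicate number was fitted as well. With this block 4, 2 and 8 members passed in the tumour comparisons of wild-type males, knock-in males and wild-type females. The shares of all genes called with the block were 33.4%, 18.4% and 48.2%. In wild-type males, where all 6 libraries correlated best with their own number, it lost Smoc2 (adjusted p = 0.0922). In the other comparisons, where 0 to 2 of 6 did, the libraries share only a number, and the block lost the calls of Ephb2 in knock-in males (adjusted p = 0.0709), Smoc2 in wild-type normal colon of the sexes (0.0894) and Lrig1 in the differences between genotypes (0.0643) and sexes (0.0913), gained Sox9 in the last (0.0411), and changed no other call of a member. Knock-in female comparisons had no block, because 2 of their columns carry no number of their own. The library number covariate, for 3 libraries numbered 152 and above, lost Lrig1 in wild-type female tumours (-0.44, adjusted p = 0.123) and in the differences between genotypes (0.0576) and sexes (0.0942), Ephb2 in knock-in male tumours (0.42, adjusted p = 0.0788), and Smoc2 in wild-type male tumours (0.0563) and wild-type normal colon of the sexes (0.0565), and changed no other call of a member. All 3 libraries numbered 152 and above were tumours. Among them were replicates 2 and 3 of the tumour group of wild-type females. The other was replicate 3 of the tumours from males of the knock-in. In the wild-type female tumour group only replicate 1 lay outside the covariate. In that comparison the covariate and the tumour change therefore cannot be fully separated. Depth limits Olfm4, and Msi1 in female normal colon, to a few counts per library.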

Other observations

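Crypt genes outside the 9 markers also differed between the sexes in wild-type normal colon, where 10 of the 20 other crypt genes were lower in females, in a comparison that called 10.2% of all genes lower. In the same comparison 5 of 8 fibroblast, 5 of 5 endothelial and 2 of 8 smooth muscle markers were also lower in females, and their part was not tested. The 4 genes named next were chosen after their values were seen. Axin2 was at 32.2 ± 2.57 CPM in females and 175 ± 80.5 CPM in males (SD, n = 3, log2 difference -2.45, SE 0.44, adjusted p = 0.00199). Ascl2 differed by -2.26 (SE 0.29, adjusted p = 8.99e-05). Sp5 differed by -4.58 (SE 1.11, adjusted p = 0.0128), a call kept in 4 of 6 fits that left out 1 library, and Lgr5 by -1.85 (SE 0.59, adjusted p = 0.0459), kept in 2 of 6 and with overlapping libraries.

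Efnb2, a ligand of the EPHB receptors that was also named after its values were seen, went the other way, at 209 ± 40.7 CPM in females and 119 ± 13.8 CPM in males (SD, n = 3, log2 difference 0.81, SE 0.17, adjusted p = 0.00427). In female normal colon it was lower in the knock-in, at 129 ± 11.5 CPM (-0.70, SE 0.17, adjusted p = 0.0111), kept in 3 of 6 fits that left out 1 library. The wild-type female libraries are shared between these comparisons.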
